A study of Mus musculus with 5 samples.

Results

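The keratins followed here were 10 genes of the 24319 in the expression table of mouse mammary luminal cells. They were taken by name as 5 simple or luminal keratins (*Krt7*, *Krt8*, *Krt18*, *Krt19* and *Krt23*) and 5 basal keratins (*Krt5*, *Krt14*, *Krt15*, *Krt17* and *Krt6a*), and each matched 1 gene of the table. The question was how far the luminal set exceeds the basal set in sorted luminal cells, and how evenly the libraries and the genotype labels share that pattern. Keratins are the intermediate filament proteins of epithelial cells. Each filament is built from pairs of an acidic type I chain and a basic or neutral type II chain, and a chain without a partner is degraded. In the mammary gland, KRT8 with KRT18 or KRT19 forms the filaments of the luminal cells that line ducts and alveoli, while KRT5 with KRT14 forms those of the basal, myoepithelial layer, which is why these genes serve as lineage markers.

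The data were 5 bulk RNA-seq libraries (Lum1 to Lum5) of luminal cells sorted by flow cytometry as viable cells with high CD24 and low CD29. For cell suspensions, the methods describe a depletion of blood-lineage and endothelial cells ahead of sorting. The labels give the genotype as wild type for Lum1, Lum2 and Lum3 and as *Brca1* knockout for Lum4 and Lum5, all of strain Mixed. In the knockout mice of the study, *MMTV-Cre*, a recombinase under a mouse mammary tumor virus promoter active in mammary epithelium, deletes floxed *Brca1* (*Brca1* fl/fl), so unrecombined cells can remain. The text of the study calls the sorted luminal cells BRCA1-deficient without naming wild type libraries, so each library is named here by its label. Some mice of the study also carried a floxed *Trp53* allele or a Cre reporter, and cells came from females of 3 to 4 months that were virgin or pregnant. Which library had which of these is not given in the sources used here, nor whether each library came from its own mouse, so p-values measure only the spread between these samples. *Brca1* itself was at 1.30, 1.32 and 0.234 FPKM in Lum1, Lum2 and Lum3 and at 1.20 and 1.34 FPKM in Lum4 and Lum5, so the gene-level value did not separate the labels. FPKM are the fragments of a gene scaled to transcript length and to the total mapped in that library, a scale per length on which genes of 1 library can be compared.

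Lum3 stood apart from the rest. Taken across genes, which are no independent replicates, its Pearson correlation with each other library was 0.921 to 0.931 on the log2(FPKM + 1) scale, where the other 4 libraries had 0.954 to 0.974 with each other. The table holds no read totals. Depth estimated from the spacing of low values was 1.00, 2.13 and 4.85 in Lum1, Lum2 and Lum3 and 1.01 and 3.40 in Lum4 and Lum5, relative to Lum1, and between 10979 and 11336 genes per library reached 1 FPKM. Values that rest on Lum3 are therefore given with and without it.

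The 10 genes lie in the 2 keratin clusters of the mouse genome, 5 on chromosome 15, where the type II genes are, and 5 on chromosome 11, which holds type I genes. In mm10 with the GENCODE M21 annotation, *Krt8* lies at chr15:101996698-102004482 on the minus strand and *Krt18* at chr15:102028180-102032027 on the plus strand. Their annotated starts are 23698 bases apart and point away from each other, so *Krt18*, a type I gene, sits at the edge of the type II cluster beside its usual partner. The stretches before the RefSeq starts of *Krt8* and *Krt18* (GRCm38.p6) are shown because these partners were the highest keratins and were both highest in Lum3. Each is the part of the 250 bases before the start that lies outside every GENCODE M21 exon, 110 bases for *Krt8* (chr15:102004483-102004592, minus strand) and 214 bases for *Krt18* (chr15:102027966-102028179, plus strand). Capitals would mark a match to a searched motif, and neither stretch held one.
Krt8: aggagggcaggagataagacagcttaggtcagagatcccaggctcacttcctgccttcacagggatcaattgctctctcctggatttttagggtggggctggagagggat
Krt18: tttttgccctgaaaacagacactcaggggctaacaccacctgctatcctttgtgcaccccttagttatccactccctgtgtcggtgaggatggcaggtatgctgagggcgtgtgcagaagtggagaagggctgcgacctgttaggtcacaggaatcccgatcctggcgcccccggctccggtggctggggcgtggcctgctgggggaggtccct
The motifs, searched on both strands of the full 250 bases, were TATAAA (the element of many core promoters), GGGCGG (a GC box bound by SP1), TGANTCA (an AP-1 site) and AACNNGTT (a Grainyhead-like site). RefSeq windows were at hand for 6 of the 10 genes (*Krt5*, *Krt7*, *Krt8*, *Krt14*, *Krt18* and *Krt23*). Of these, *Krt7* alone held a match, with 4 GC boxes between 141 and 19 bases before its start, none overlapping another, in a window most of which is exonic in GENCODE M21. Over 32851 promoters of the same length, 32.7% held a GC box, 12.4% the core promoter element, 6.75% an AP-1 site and 3.64% a Grainyhead-like site. The windows of *Krt7*, *Krt18* and *Krt8* were 66.0%, 60.4% and 58.0% G or C, against a median of 52.4% over all promoters. Those of *Krt5*, *Krt23* and *Krt14* were 56.0%, 52.8% and 49.6%. The *Krt14* window lies inside the annotated gene and was not printed.

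*Krt8*, *Krt18* and *Krt19* made up nearly all of the keratin message. *Krt8*, the main type II chain of simple epithelia, was at 2483, 2240.2 and 3653 FPKM in Lum1, Lum2 and Lum3 and at 2421 and 2332 FPKM in Lum4 and Lum5. It ranked between 10 and 36 among all genes of a library, with a mean level of 11.33 ± 0.29 in log2(FPKM + 1) (SD, n = 5). *Krt18*, its type I partner, was at 1739.6, 1490.2 and 2869 FPKM in the wild type libraries and at 1720.2 and 1519 FPKM in the knockout libraries (10.82 ± 0.38). For both genes the knockout values lay inside the wild type range, and Lum3 was the highest library. *Krt19* (chr11:100140810-100148665, minus strand), a short type I keratin that lacks the tail domain, was at 1501, 1296 and 2112 FPKM in Lum1 to Lum3 and at 1663 and 1299.7 FPKM in Lum4 and Lum5 (10.60 ± 0.29). Its groups also overlapped, with Lum3 again highest.

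Without Lum3 these 3 genes varied little, with SDs of 0.065, 0.12 and 0.17 on the log2 scale for *Krt8*, *Krt18* and *Krt19* (n = 4). In Lum3 they were 1.54-fold, 1.77-fold and 1.47-fold the mean FPKM of the other libraries. As shares of the summed FPKM of all 52 keratin genes in the table, *Krt8* held 42.3% ± 1.48, *Krt18* 29.6% ± 1.37 and *Krt19* 25.4% ± 1.77 (SD, n = 5). The sum itself was 5847, 5242 and 8979.9 FPKM in Lum1 to Lum3 and 5892 and 5251 FPKM in Lum4 and Lum5, which is 0.869% to 1.71% of the summed FPKM of a library. Lum3 had both the highest sum and the highest share, and the 10 listed genes made up 99.6% to 99.7% of the keratin sum in each library.

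**Figure D1:**
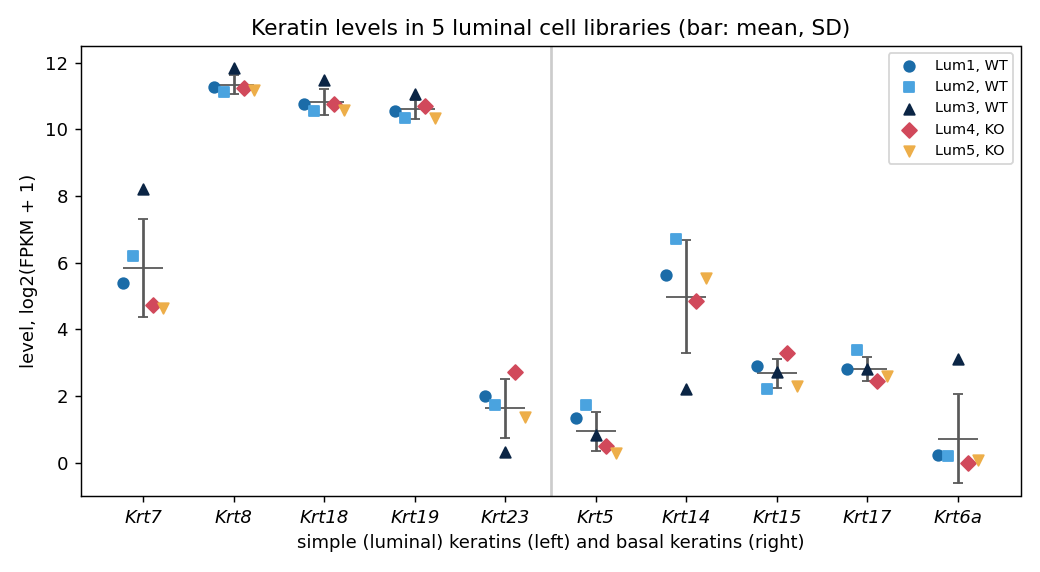
Level of each keratin in log2(FPKM + 1), with the 5 simple keratins on the left and the 5 basal keratins on the right of the vertical line. Points are single libraries by genotype label (WT, wild type; KO, *Brca1* knockout), the horizontal bar is the mean and the whisker its SD (n = 5). *Krt8*, *Krt18* and *Krt19* lie above 10 in every library, and Lum3 (dark triangle) is highest for *Krt7* and *Krt6a* and lowest for *Krt14* and *Krt23*.

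*Krt7* and *Krt23*, the remaining simple keratins, were far lower and varied more. *Krt7* (chr15:101411043-101430313, plus strand), a type II keratin of ductal and glandular epithelium, was at 41.1, 72.3 and 298 FPKM in Lum1 to Lum3 and at 25.8 and 24.1 FPKM in Lum4 and Lum5. Every knockout library was below every wild type library, and Lum3 was 7.30-fold the mean of the other libraries. *Krt7* amounted to 1.66%, 3.23% and 8.16% of *Krt8* in the wild type libraries and to 1.06% and 1.03% in the knockout libraries. *Krt23* (chr11:99477974-99493137, minus strand), a type I keratin of simple epithelia with a less settled function, went the other way and was lowest in Lum3. It was at 3.02, 2.35 and 0.252 FPKM in Lum1 to Lum3 and at 5.56 and 1.60 FPKM in Lum4 and Lum5, so the groups overlapped. Being named a luminal keratin thus did not go with one common level, since *Krt23* lay in the range of the basal keratins.

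*Krt14* was the highest basal keratin in 4 of the 5 libraries, and the lowest but one in Lum3, where *Krt6a* led. *Krt14* (chr11:100203162-100207548, minus strand), the type I partner of KRT5 in basal epithelial layers, was at 48.2, 104 and 3.65 FPKM in Lum1 to Lum3 and at 27.7 and 45.5 FPKM in Lum4 and Lum5. The other libraries averaged 15.4-fold the Lum3 value, and the knockout values lay inside the wild type range only because of Lum3. *Krt5* (chr15:101707070-101712898, minus strand), the type II partner, was at 1.53, 2.34 and 0.795 FPKM in the wild type and at 0.423 and 0.232 FPKM in the knockout libraries. All knockout values were below all wild type values, at levels that correspond to about 6 to 66 fragments per library.

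*Krt15*, *Krt17* and *Krt6a* are keratins of basal, stressed or hair follicle epithelium. *Krt15* (chr11:100131758-100135928, minus strand), a type I keratin of basal cells, was at 6.41, 3.61 and 5.62 FPKM in Lum1 to Lum3 and at 8.71 and 3.97 FPKM in Lum4 and Lum5, and the groups overlapped. *Krt17* (chr11:100256217-100261029, minus strand), a type I keratin induced in stressed epithelium, was at 6.04, 9.497 and 6.08 FPKM in the wild type and at 4.45 and 5.11 FPKM in the knockout libraries, which did not overlap. *Krt6a* (chr15:101689910-101694307, minus strand), a type II keratin induced with wounding and a partner of KRT16 and KRT17, was at 0.182, 0.154 and 7.64 FPKM in Lum1 to Lum3, listed at 0 in Lum4 and at 0.0640 FPKM in Lum5. Its Lum3 value was 76.4-fold the mean of the others, about 539 fragments against at most 5 elsewhere. The gene reached the mean of 1 FPKM required for testing through Lum3 alone, and Lum3 was close to the mean of the other libraries for *Krt15* and *Krt17*.

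Ordered by mean FPKM, the genes ran *Krt8*, *Krt18*, *Krt19*, *Krt7*, *Krt14*, *Krt17*, *Krt15*, *Krt23*, *Krt6a* and *Krt5*. *Krt8* exceeded *Krt18* in 5 of 5 libraries, by 0.51 ± 0.11 in log2(FPKM + 1), and *Krt18* exceeded *Krt19* in 5 of 5, by 0.23 ± 0.14. The step from *Krt19* to *Krt7* was the one between neighbours whose ranges did not meet, at 4.76 ± 1.29. *Krt7* was above *Krt14* in 1 of 5 libraries, Lum3, although its mean was higher. *Krt17* and *Krt15* differed by 0.13 ± 0.73, and *Krt6a* was above *Krt5* in 1 of 5 libraries, again Lum3. These neighbours therefore did not differ beyond their spread, while *Krt15* was above *Krt23* in 5 of 5 libraries, by 1.05 ± 0.78.

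As sets, by median or by sum, the simple keratins exceeded the basal keratins by a wide margin in every library. The median level of the 5 simple keratins minus that of the 5 basal keratins was 7.74, 8.14 and 8.32 in Lum1 to Lum3 and 8.26 and 8.03 in Lum4 and Lum5, on the log2(FPKM + 1) scale. The mean difference was 8.10 ± 0.23 (SD, n = 5), with 8.06 for the wild type and 8.14 for the knockout label, and 8.04 ± 0.22 without Lum3 (n = 4). In every library the simple median was the level of *Krt19*. The basal median was that of *Krt17* in Lum1 and Lum4 and of *Krt15* in the others, so neither *Krt14* nor *Krt5* entered the difference. With means in place of medians it was 5.61 ± 0.42. As sums, the simple keratins were 92.5-fold, 42.7-fold and 376-fold the basal keratins in Lum1 to Lum3 and 141-fold and 94.3-fold in Lum4 and Lum5. By these sums, Lum3 had the widest and Lum2 the narrowest margin with the knockout libraries between them, while by the medians Lum1 was narrowest. The basal share of the 10 keratins was 1.07%, 2.29% and 0.266% in Lum1 to Lum3 and 0.702% and 1.05% in Lum4 and Lum5. In bulk RNA, fewer cells of a type and less RNA per cell cannot be told apart.

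The ratio of type II to type I keratin RNA stayed within a narrow range over the libraries. Summed type II over summed type I FPKM among the 10 genes was 0.764, 0.797 and 0.792 in Lum1 to Lum3 and 0.714 and 0.820 in Lum4 and Lum5 (0.777 ± 0.041, n = 5). *Krt8* was 1.43-fold *Krt18* on average (± 0.10, n = 5), between 1.27-fold in Lum3 and 1.54-fold in Lum5. Set against both type I partners together, *Krt8* was 0.766, 0.804 and 0.733 of *Krt18* plus *Krt19* in the wild type libraries and 0.716 and 0.827 in the knockout libraries. Lum3 lay inside the range of the others for the summed ratio and for *Krt8* against both partners, and was lowest for *Krt8* over *Krt18*, although its summed level was higher. All of these ratios rest mainly on the 3 abundant genes. The basal pair behaved differently. *Krt14* was 31.4-fold, 44.3-fold and 4.59-fold *Krt5* in Lum1 to Lum3 and 65.3-fold and 197-fold in Lum4 and Lum5. The type I RNA thus exceeded that of its type II partner in each library, by an amount that differed widely between them. In Lum4 and Lum5 the *Krt5* values rest on an estimated 6 and 11 fragments, so the ratios there are imprecise.

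**Figure D2:**
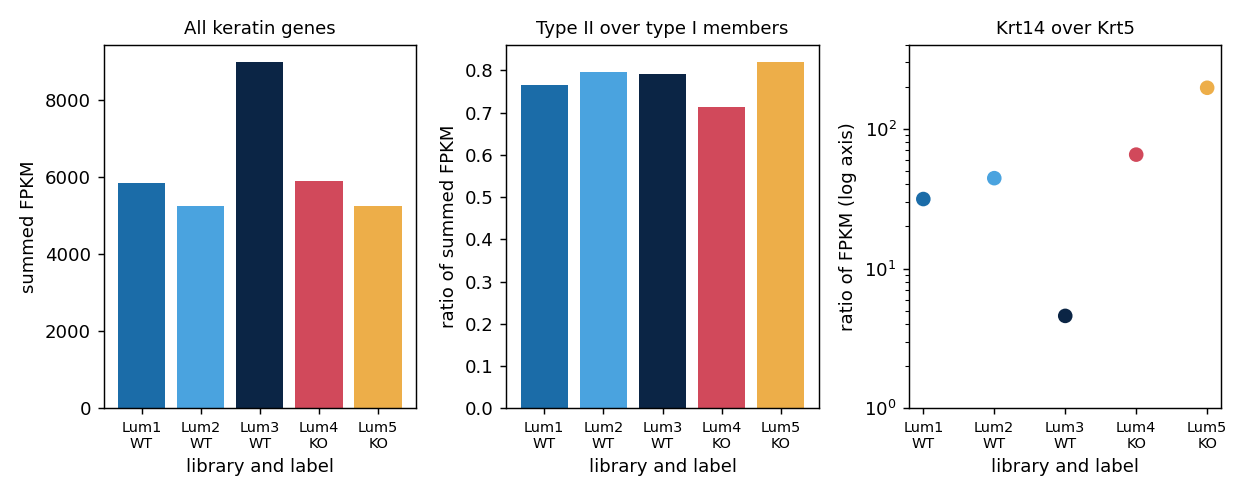
Summed FPKM of all 52 keratin genes (left), summed type II over summed type I FPKM of the 10 keratins (middle) and *Krt14* over *Krt5* on a log axis (right), per library with its label (WT, wild type; KO, *Brca1* knockout). Bars and points are single values with no error. The sum is highest in Lum3 at 8979.9 FPKM, the type balance stays between 0.714 and 0.820, and *Krt14* over *Krt5* runs from 4.59 in Lum3 to 197 in Lum5. The *Krt5* value of Lum5 rests on an estimated 11 fragments.

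Other genes of basal cells were low, and their defining factor was near 0. *Trp63*, the transcription factor that defines basal epithelial cells, was between 0.115 and 0.311 FPKM. *Acta2*, smooth muscle actin of myoepithelial cells, was at 8.95, 14.4 and 1.93 FPKM in Lum1 to Lum3 and at 3.52 and 2.53 FPKM in Lum4 and Lum5, and *Myh11*, smooth muscle myosin, between 0.318 and 1.89 FPKM. The summed level of 8 non-keratin basal markers was 28.0, 36.7 and 8.40 FPKM in Lum1 to Lum3 and 17.4 and 20.3 FPKM in Lum4 and Lum5, and none was at 0 in every library. *Krt14*, *Acta2* and this sum were all highest in Lum2 and lowest in Lum3. Within the sum, *Oxtr* was at 0.478 FPKM in Lum3 and between 6.57 and 12.7 FPKM elsewhere. The markers did not share 1 order, since *Acta2* and *Cdh3* were lowest in Lum3, *Myh11*, *Cnn1*, *Mylk* and *Tagln* in Lum5 and *Trp63* in Lum2. *Krt14* was 5.38-fold, 7.21-fold and 1.89-fold *Acta2* in Lum1 to Lum3 and 7.87-fold and 18.0-fold in Lum4 and Lum5, so the ratio was not constant. The part of basal cells in the *Krt14* values was not tested.

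**Figure D3:**
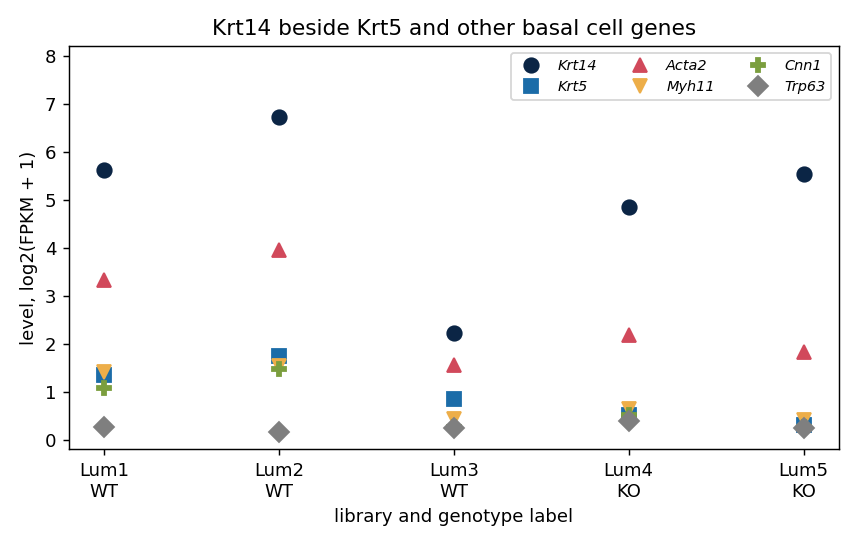
Level of *Krt14*, *Krt5* and 4 other genes of basal or myoepithelial cells in log2(FPKM + 1) in each library with its label (WT, wild type; KO, *Brca1* knockout). Points are single values, and some overlap. *Krt14* is the highest of the 6 genes in every library and is lowest in Lum3, where *Acta2* is also lowest. *Krt5*, *Myh11* and *Cnn1* are lowest in Lum5 and *Trp63* in Lum2.

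Pan-luminal markers were expressed throughout, which does not test the luminal label. All 8 were at 1 FPKM or more in every library, with *Epcam*, an epithelial adhesion molecule, between 569.6 and 1062 FPKM. The list includes *Cd24a*, the gene of the CD24 used for sorting. The same level was reached in every library by 3 of the 5 basal keratins and 2 of the 8 non-keratin basal markers. *Krt8* over *Epcam* was 3.57, 3.93 and 3.44 in Lum1 to Lum3 and 2.99 and 3.79 in Lum4 and Lum5, so Lum3 did not stand apart in this ratio. All 7 markers of mature, hormone-sensing luminal cells were highest in Lum3, where their summed level was 638 FPKM against 15.1 to 36.4 FPKM elsewhere. Of 6 luminal progenitor markers, 3 were also highest in Lum3 and 2 lowest there. *Itgb3* was at 34.9 FPKM in Lum3 against 0.596 to 1.72 FPKM elsewhere, and *Elf5* at 102 against 244 to 338 FPKM. *Krt7* and *Krt6a* were highest in Lum3 too. The part of either kind of luminal cell in the keratin values of Lum3 was not tested. Fibroblast markers summed to 109 and 86.03 FPKM in Lum2 and Lum3 and to at most 12.6 FPKM elsewhere. Immune markers summed to 48.7 and 24.6 FPKM in Lum2 and Lum3 and to at most 4.49 FPKM elsewhere, and endothelial markers to 6.59 and 7.50 FPKM against at most 0.700 FPKM. *Krt7* was also higher in Lum2 and Lum3 than elsewhere, and the part of these cells in it was not tested.

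Between the genotype labels, 0 of the 10 keratins passed the test, as did 0 of all 11481 genes whose mean reached 1 FPKM (0%). The test was limma on log2(FPKM + 1) with Benjamini-Hochberg adjustment over those genes at a threshold of 0.05. At an unadjusted p under 0.05 limma gave 372 genes (3.24%, and 0.915% with the knockout lower), and 0 of the 10 keratins. In value, 7 of the keratins were lower under the knockout label and 3 higher, with a median log2 fold change of -0.24, against 0.11 over all genes tested. The median was -0.20 for the simple and -0.48 for the basal keratins.

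In 4 of the 10 keratins the groups did not overlap, *Krt7*, *Krt5*, *Krt17* and *Krt6a*, each lower in every knockout library, and in 0 were they apart in the other direction. Over all genes tested, the groups were apart with the knockout lower in 5.77%, with the knockout higher in 17.5% and either way in 23.3%. Without Lum3, *Krt14* joined them, 5 of the 10, where 15.6% of all genes were apart in that direction and 23.5% in the other. *Krt5* (mean 1.56 FPKM in the wild type and 0.328 FPKM in the knockout libraries) and *Krt6a* (2.66 and 0.0320 FPKM) reached the mean of 1 FPKM only through the wild type libraries, so their direction was partly set by that filter. The choice of these 10 genes was made with earlier results known, so the counts are descriptions.

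With all 5 libraries and a pseudocount of 1, *Krt7* had the largest difference, a log2 fold change of -1.91 (standard error 0.83, 95% interval -3.99 to 0.17), with an adjusted p of 0.924 from limma with Benjamini-Hochberg adjustment. Without Lum3 it was -1.10, with an adjusted p of 0.675 by the same fit. *Krt5* had a log2 fold change of -0.90 (standard error 0.36, 95% interval -1.81 to 0.0055, limma adjusted p = 0.924), and -1.14 without Lum3 (limma adjusted p = 0.675), where it was slightly larger than that of *Krt7*. With a pseudocount of 0.1 it was -1.87. *Krt17* differed by -0.48 (standard error 0.25, limma adjusted p = 0.924) and *Krt6a* by -1.14, which became -0.18 without Lum3 and -2.68 with a pseudocount of 0.1, then the largest of the 10. An exact permutation test (two-sided) cannot go below p = 0.2 with 3 libraries against 2, and groups that do not overlap give that value by construction. In the other 6 keratins its p lay between 0.6 and 1.0. Over the alternatives run, the adjusted p of *Krt5* lay between 0.111 and 1.0 and that of *Krt7* between 0.113 and 1.0 (limma, Benjamini-Hochberg).

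The abundant luminal keratins had close means under both labels once Lum3 was set aside. With all 5 libraries the log2 fold change was -0.20 for *Krt8* (95% interval -0.96 to 0.56), -0.27 for *Krt18* (-1.15 to 0.61) and -0.12 for *Krt19* (-0.89 to 0.64). Without Lum3 it was 0.011, 0.0055 and 0.076. These intervals do not show equality, since a difference of more than 0.5 in either direction remained inside them. *Krt14* changed sign, from 0.34 (95% interval -2.997 to 3.68) with all libraries to -0.97 without Lum3, with limma adjusted p-values of 0.979 and 0.694. *Krt15* differed by 0.19 and *Krt23* by 0.69, with limma adjusted p-values of 0.951 and 0.924.

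**Figure D4:**
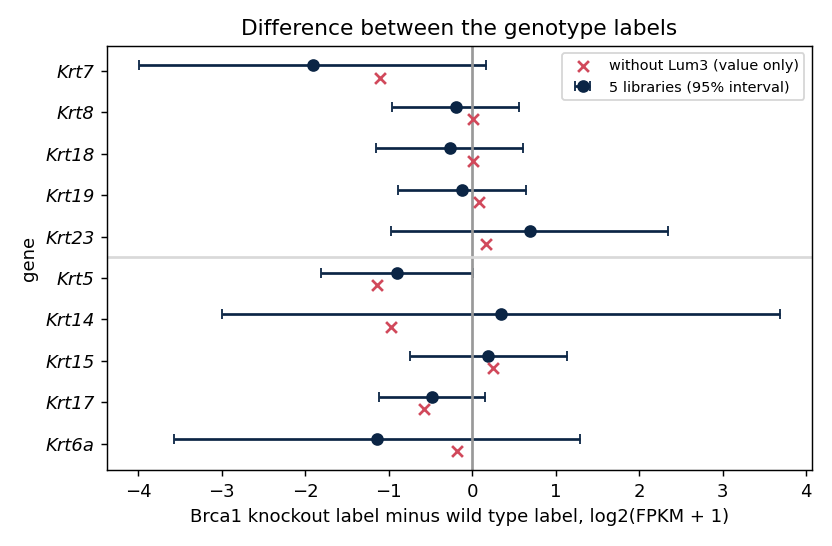
Difference between the genotype labels for each keratin, *Brca1* knockout minus wild type, in log2(FPKM + 1). Circles with bars are the value and its 95% interval from limma over 5 libraries, and crosses the value without Lum3 (no interval drawn). All intervals include 0, and the crosses of *Krt8*, *Krt18* and *Krt19* lie near 0 while that of *Krt14* has the opposite sign from its circle.

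Lum3 shifted the members in both directions. It was the highest library for 5 of the 10 keratins (*Krt7*, *Krt8*, *Krt18*, *Krt19* and *Krt6a*), as it was for 18.5% of all genes tested. *Krt6a* was among the genes tested through Lum3 alone, so its place among the 5 follows from that filter. Lum3 was the lowest for 2 of the 10 (*Krt14* and *Krt23*), as it was for 51.9% of all genes. The other 3 basal keratins (*Krt5*, *Krt15* and *Krt17*) held a middle place there.

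The rest of the keratin family was close to silent in these cells. Of the other 42 keratin genes, 10 were listed at 0 in every library and 33, these 10 included, stayed under 1 FPKM in every library. A mean of at least 1 FPKM was reached by 4, *Krt10*, *Krt16*, *Krt4* and *Krt80*, and limma called 0 of them between the labels (0 also at an unadjusted p under 0.05). *Krt16*, a type I keratin whose partner is KRT6, was at 5.60, 8.21 and 1.41 FPKM in Lum1 to Lum3 and at 5.56 and 5.46 FPKM in Lum4 and Lum5, so it was lowest in Lum3 as *Krt14* was. *Krt4*, a type II keratin of wet stratified epithelium, was at 0.465, 0.632 and 6.21 FPKM in Lum1 to Lum3 and at 0.0769 and 0.0908 FPKM in Lum4 and Lum5, highest in Lum3 as *Krt6a* was. *Krt4* reached the mean of 1 FPKM through Lum3 alone, with a mean of 0.316 FPKM over the other libraries. *Krt10*, of the upper epidermis, stayed between 0.876 and 1.66 FPKM, and *Krt80* between 4.82 and 9.66 FPKM. In Lum3 alone, 5 genes reached 1 FPKM, namely *Krt4* and the type II genes *Krt6b*, *Krt78*, *Krt83* and *Krt85*, the last 4 named after their values were seen. Of the 7 epidermal markers, 6 were in the table, and *Krtdap* was at 0 in every library, while *Sbsn* was between 14.4 and 79.9 FPKM.

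**Figure D5:**
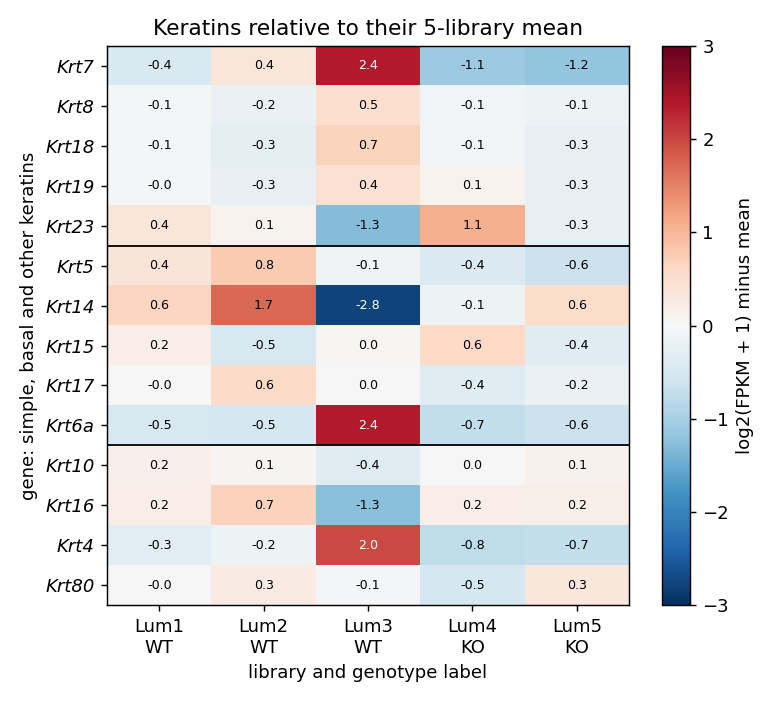
Each keratin in each library as log2(FPKM + 1) minus its mean over the 5 libraries, for the simple keratins (top), the basal keratins (middle) and the other keratins with a mean of at least 1 FPKM (bottom). Red is above and blue below the gene's own mean, and the number in each cell is the difference. Lum3 holds the strongest red (*Krt7*, *Krt6a*, *Krt4*) and the strongest blue (*Krt14*) cells. *Krt6a* and *Krt4* have a mean of at least 1 FPKM through Lum3 alone.

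Keratin genes share sequence, which bears on how reads could be divided between them. Of the 50-base windows in its annotated transcript, *Krt6a* shared 45.5% with other genes, 39.9% with its paralog *Krt6b*, and *Krt14* shared 14.4%, mainly with *Krt16*. *Krt8* shared 26.9% with a pseudogene, *Krt8-ps*, and *Krt5* 8.52%, mainly with *Krt6a*. In 100-base windows, nearer the run lengths in the study's methods, the shares were lower. They were 29.1% for *Krt6a*, 16.9% for *Krt8*, 2.88% for *Krt14* and 2.38% for *Krt5*. *Krt7*, *Krt19* and *Krt23* shared none at either length. The *Krt6a* level in Lum3 is thus uncertain between *Krt6a* and *Krt6b* (7.64 and 1.11 FPKM), and *Krt16* stood at 11.6%, 7.91% and 38.7% of *Krt14* in Lum1 to Lum3 and at 20.1% and 12.0% in Lum4 and Lum5.

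Keratin filaments end on desmosomes and hemidesmosomes, and most genes of these anchors were expressed. Of 16 such genes, 13 were at 1 FPKM or more in every library and 3 (*Dsg3*, *Dsc3* and *Col17a1*) under 1 FPKM in every library. Of the 13, limma called 0 between the labels, and their median log2 fold change was -0.10. *Dsp*, the desmoplakin that ties keratin to the desmosome, was at 3.32, 6.27 and 17.3 FPKM in Lum1 to Lum3 and at 1.71 and 1.11 FPKM in Lum4 and Lum5. It was the 1 of the 13 whose groups did not overlap with the knockout lower, a share near the 5.77% of all genes, at a log2 fold change of -1.80 (standard error 0.62, limma adjusted p = 0.924, unadjusted p = 0.031), and, like *Krt7*, was highest in Lum3 and second in Lum2. *Jup*, plakoglobin, was between 77.4 and 124 FPKM and *Plec*, the linker plectin, between 16.9 and 47.3 FPKM, both highest in Lum3. Of the 13, 6 were highest in Lum3, against 18.5% of all genes tested. 1 was lowest there, *Ppl*, at 23.7 FPKM against 38.5 to 43.0 FPKM elsewhere, where 51.9% of all genes were lowest in Lum3. *Dsg3* and *Dsc3*, desmosomal cadherins of stratified epithelium, stayed under 0.1 FPKM.

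Among 11 other intermediate filament genes, limma called 0 of the 5 tested. *Vim*, vimentin of mesenchymal cells, was at 4.22, 121 and 67.3 FPKM in Lum1 to Lum3 and at 3.10 and 6.95 FPKM in Lum4 and Lum5, high in the same libraries as the fibroblast markers. *Lmna*, lamin A/C of the nuclear lamina, was at 536, 388 and 1132 FPKM in Lum1 to Lum3 and at 645 and 492 FPKM in Lum4 and Lum5, with Lum3 highest, as for *Krt8*. *Krt8* was above *Vim* in every library, since the lowest *Krt8* value was 2240.2 FPKM.

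*Krt7* was the simple keratin and *Krt14* the basal keratin with the largest SD over the libraries, 1.47 and 1.69 in log2(FPKM + 1). The genes whose profile over the 5 libraries, centred on its mean, lay nearest to that of *Krt7* were *Mmp14*, *Pianp*, *Emp1*, *Cyb5a* and *Gsn*, at root mean square differences of 0.204 to 0.245. *Emp1*, an epithelial membrane protein, was at 34.7, 89.4 and 307 FPKM in Lum1 to Lum3 and at 36.2 and 28.6 FPKM in Lum4 and Lum5. For *Krt14* the nearest were *Apln*, *Fabp3*, *Slc16a12*, *Lpl* and *Gldc*, at 0.410 to 0.493, so the match was looser. *Apln*, the peptide ligand apelin, was at 8.45, 12.3 and 0.167 FPKM in Lum1 to Lum3 and at 2.97 and 10.6 FPKM in Lum4 and Lum5. Because Lum3 dominates both profiles, this choice favours genes that are high or low in that library.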

How the data were processed

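Luminal cells were profiled by paired-end RNA-seq. The authors trimmed reads with Trimmomatic 0.35, aligned them to mm10 with TopHat2 2.0.13 and deposited FPKM values made with Cufflinks 2.2.1, per the labels' processing notes. The gene annotation and the treatment of reads shared between paralogs are not given in the sources used here. Of 24346 table entries, 27 whose gene name had become a date were left out. No 2 libraries were identical.

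FPKM were analysed as log2(FPKM + 1), which understates changes of low genes. The *Brca1* knockout label was compared with wild type in limma 3.58.1 (lmFit, eBayes with a trend, R 4.3.3) on the 11481 genes whose mean reached 1 FPKM, with Benjamini-Hochberg adjustment at 0.05. For single keratins a two-sided exact permutation test was added (scipy 1.17.1). Fragment totals were estimated from 873 genes with 1 transcript over 3000 bases. Between 50.4% and 59.6% of low values lay within 0.15 of a whole multiple, so no counts were recovered and no count test was run. Fragment numbers are approximate.

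Named genes were the 10 keratins, other keratins whose mean reached 1 FPKM, genes of fixed marker lists set beside them, and the 5 genes nearest in profile to the most variable simple and basal keratin. The members and lists were chosen with earlier results of these data known. Alternatives changed the pseudocount, filter, scaling, variance model, summary and libraries. Calculations used Python 3.11.15, numpy 2.4.6 and pandas 2.3.3.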

Additional observations from a re-analysis of the deposited data

Results flagged for a closer look

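In 6 of the 18 quantities examined, 1 library lay far from the other 4 relative to the whole range, and in all 6 it was Lum3. All 6 were gene levels. Chance gives such a gap in about 5% of groups, but over all 11481 genes tested 13% had a library standing apart, and in 10.6% it was Lum3. The gap as a fraction of the range of log2(FPKM + 1) was 0.790 for *Krt8*, 0.764 for *Krt18* and 0.922 for *Krt6a*, with Lum3 highest. It was 0.781 for *Krt4*, also with Lum3 highest, and 0.736 for *Krt16* and 0.720 for *Krt10*, with Lum3 lowest. *Krt4* was examined only because Lum3 brought its mean to 1 FPKM, so its place among the 6 follows partly from that choice. *Krt6a*, examined as a listed gene, also reached that mean through Lum3 alone. The critical value for 5 libraries is 0.71.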

How the results depend on the processing

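No paired analysis was run, since the sources used here name no pairing of Lum1 to Lum3 (wild type) with Lum4 and Lum5 (knockout). No keratin was called by limma under any alternative run. The simple minus basal difference moved from 8.10 to 8.35 with a pseudocount of 0.1 and to 5.61 when each group was summarised by its mean, and lay between 8.04 and 8.19 with 1 library left out. The type II to type I ratio lay between 0.767 and 0.793 and the share of *Krt8* between 41.7% and 42.7% with 1 library left out. The count of keratins lower in every knockout library was 5 without Lum3, an alternative chosen after seeing the data. That count includes *Krt6a*, whose mean was under 1 FPKM without Lum3. With array weights the log2 fold change changed sign for *Krt8* (0.056), *Krt18* (0.077), *Krt19* (0.15) and *Krt14* (-1.32). With 1 library left out it ranged from -0.34 to 0.011 for *Krt8*, -0.47 to 0.0055 for *Krt18*, -0.30 to 0.076 for *Krt19*, -0.97 to 1.27 for *Krt14* and -0.29 to 0.67 for *Krt15*. Without Lum3 the sign changed for *Krt8*, *Krt18*, *Krt19* and *Krt14*, without Lum5 for *Krt19* (0.054) and *Krt14* (-0.0075), and without Lum2 (-0.011) and Lum4 (-0.29) for *Krt15*. The cause was not tested. Over all genes, limma called 1 gene with array weights, 2 without Lum1, and 18 and 4 without Lum4 and Lum5, where the lone knockout library is assumed to vary like the others, and 0 under the other alternatives. At an unadjusted p under 0.05, *Krt5* passed in 7 alternatives, *Krt7* in 3 and *Krt17* in 2. All 3 passed with array weights, where 24.4% of all genes did, against 7.56% without Lum1, 7.33% without Lum3 and 3.09% to 3.67% in the other alternatives concerned. Among the other single-gene values and the count over all genes, 238 comparisons with an alternative stayed within their spread or on the same side of the threshold. A further 12 changed sign, as listed above, and 6 moved. Those 6 were the changed counts over all genes and the levels of *Krt5* and *Krt6a* with a pseudocount of 0.1. The log2 level of *Krt5* went from 0.95 to -0.14 and that of *Krt6a* from 0.73 to -1.36. The level of *Krt5* rests on an estimated 6 to 66 fragments per library, which limits its precision.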
